A study of Mus musculus with 8 samples.

Results

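The primary cilium genes behind hedgehog signalling were taken as 41 mouse genes in 7 roles, namely subunits of intraflagellar transport complexes B and A, cilium kinesins, the BBSome with its chaperonin-like partners, ARL GTPases with regulators of membrane cargo, the EVC ring, and the transition zone with the basal body. They were found by symbol or synonym in the annotation of the array, which gave 63 of 45037 probe sets, the groups of short oligonucleotides that together report 1 transcript. The 63 probe sets covered 38 of the 41 genes, and *Arl6*, *Arl13b* and *Rpgrip1l* were not analysed here. A single probe set reported 23 of the 38 genes and several reported 15, and a gene was represented by its brightest probe set, as was each of the 18193 genes of the array that had a probe set to itself.

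Whole-prostate RNA of 4 mice lacking *Olfm4* and of 4 wild-type mice, all aged 3 months, had been hybridised to Affymetrix Mouse Genome 430 2.0 arrays, 1 mouse per array. The knockouts lack this gene, that of a secreted olfactomedin-domain glycoprotein, in the germline and so in every cell type, and the mice of both genotypes had a mixed background of 129/SV (50%) and Black Swiss of the National Institutes of Health (50%). The labels give 4 mice per genotype at this age, whereas the methods give 5 and a legend 4 or 3. The titles of the arrays carry 2 dates, each shared by 2 knockout and 2 wild-type arrays, which are called array day 1 (knockout arrays 3 and 4, wild-type arrays 1 and 4) and array day 2 (knockout arrays 1 and 2, wild-type arrays 2 and 3) hereafter. Values are on the log2 scale, as made by the authors with RMA, so that a difference of 1 is a doubling. A log2 fold change is knockout minus wild type, adjusted for array day, with its standard error (SE) from limma, and p was adjusted over all 45037 probe sets.

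The labels were checked on *Olfm4*, which lay between 3.00 and 3.25 on the knockout arrays, against 10.23 to 10.74 on the wild-type arrays (log2 fold change -7.37, SE 0.13, adjusted p = 1.79e-06 from limma). Array medians lay between 6.03 and 6.09, correlations between arrays between 0.983 and 0.996, and the luminal prostate marker *Pbsn*, probasin, between 13.64 and 14.09. Knockout array 1 correlated least with the others, at 0.983 to 0.986. Seminal vesicle markers stood apart on 1 array of each genotype, with a summed score, the mean of its genes once each was centred over the arrays, of 3.47 on knockout array 1 and -1.46 to -0.47 on the other knockout arrays, against 3.87 on wild-type array 1 and -2.69 to -0.78 on the other wild-type arrays. The number of arrays limits the precision. The p-values set the difference between genotypes against the variation left between arrays once genotype and array day are fitted. With 1 mouse per array, variation between animals and between arrays cannot be told apart.

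The primary cilium is a single, non-motile projection of the cell surface built on a centriole. Proteins enter and travel along it by intraflagellar transport (IFT), with the IFT-B complex and kinesin-2 carrying cargo towards the tip and the IFT-A complex and dynein-2 carrying it back, while the BBSome helps to move membrane proteins out and the transition zone gates the base. In vertebrates hedgehog signals are read in this structure. The receptor Patched leaves it when a ligand binds, Smoothened then accumulates in it, and the GLI transcription factors pass through its tip before they act in the nucleus. In the prostate the ligand is made by epithelium and read mainly by the surrounding stroma. The study was concerned with the hedgehog pathway in this tissue, and the comparison asked whether transcripts of the cilium itself differed between the genotypes.

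None of the 38 genes was called in knockout against wild-type prostate, at an adjusted p under 0.05 in limma, where 31 genes, 0.17% of all, were called. The smallest adjusted p was 0.26. At an unadjusted p under 0.05, 7 of the 38 genes had a lower value in the knockouts, which is 18.4% of them against 8.49% of all genes, and 2 were higher, which is 5.26% against 6.27%. The 7 lower genes were *Ift52*, *Ift172* and *Ift74* of IFT-B, *Ift140* of IFT-A, *Bbs2* and *Bbs9* of the BBSome and *B9d2* of the transition zone. The 2 higher genes were *Bbs12*, of the chaperonin-like partners, and the kinesin *Kif17*. Under the methods' analysis of variance, run without array day, 9 genes were lower (against 8.92% of all genes) and 1 was higher (against 6.08%) at an unadjusted p under 0.05, and none was called, against 18 of all genes. Of all genes at an unadjusted p under 0.05, 42.5% were higher in knockout prostate, a share that was 57.3% when each array was centred on its median and 51.8% when the arrays were quantile-normalised again. The lower genes then numbered 6 with centring (15.8% against 6.06% of all genes) and 7 with the second normalization (18.4% against 6.93%). The share of all genes that was lower was larger once dim genes were left out. With a mean log2 value of at least 5 it was 10.0%, against 18.4% of the 38 genes. With a mean of at least 7 it was 12.8%, against 25.0% of the 32 cilium genes that remained.

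The differences were small. The median log2 fold change of the 38 genes was -0.09, against -0.02 over all genes, and the range was -0.43 to 0.39. The mean was lower in knockout prostate for 25 genes, or 65.8% against 53.8% of all genes, and higher for 13. The knockout arrays were all below the wild-type arrays for 7 genes, 18.4% against 6.29% of all genes, namely *Ift52*, *Ift172*, *Ift20*, *Ift140*, *Bbs2*, *Bbs9* and *B9d2*, and all above them for 1 gene, *Bbs12* (2.63% against 4.49%). The 95% confidence interval of the fold change lay within 2-fold in either direction for 38 of 38 genes, within 1.5-fold for 34 and within 1.2-fold for 4. It included 0 for 29 genes, and the bound farthest below 0 was -0.91, for *Bbs7*, while the bound farthest above it was 0.71, for *Bbs12*. In RNA of a whole organ, fewer cells of a type and less RNA per cell cannot be told apart.

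**Figure D1:**
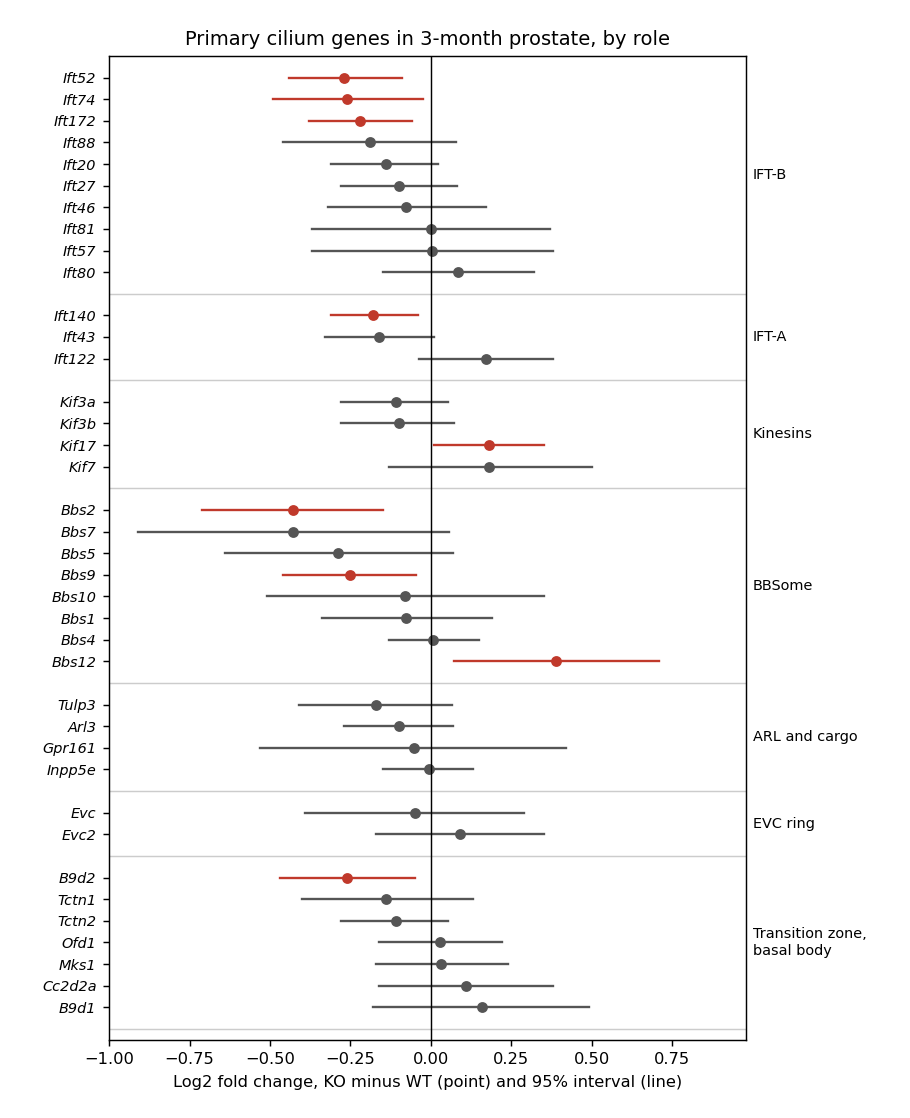
Log2 fold change of each of the 38 primary cilium genes, knockout minus wild type, with its 95% confidence interval from limma, grouped by role; colour marks an unadjusted p under 0.05. The 25 genes left of 0 have a lower mean in knockout prostate, and the values run from -0.43 to 0.39.

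Of the 4 arrays of each genotype, 2 were from either array day, so each day was also read alone. The median log2 fold change of the 38 genes was -0.03 on array day 1 (all genes 0.0015) and -0.12 on array day 2 (all genes -0.03). Lower means on both days were found for 17 genes, 44.7% against 32.2% of all genes, and higher means on both days for 4, 10.5% against 27.0%. The 9 genes past an unadjusted p under 0.05 had the same direction on both days. They were picked by a fit to both days together, which favours genes whose days agree, so this is not separate support. On array day 1 alone, 2 genes were lower at an unadjusted p under 0.05 (5.26% against 2.96%), *Ift52* and *Bbs1*. On array day 2 alone 8 were lower (21.1% against 7.03%), *B9d2*, *Bbs2*, *Bbs5*, *Bbs7*, *Bbs9*, *Ift43*, *Ift74* and *Ift88*. Of the genes lower on a single day, *Bbs1*, *Bbs5*, *Bbs7*, *Ift43* and *Ift88* were not past it in the fit to both days. *Ift140* and *Ift172*, which were past it in that fit, were past it on neither day alone. The difference between the days was not tested. The 2 arrays rich in seminal vesicle transcripts fell on different days, wild-type array 1 on array day 1 and knockout array 1 on array day 2. The median log2 fold change of the seminal vesicle markers was -2.32 on array day 1 and 3.56 on array day 2. Within a single day, genotype and seminal vesicle content therefore cannot be told apart, which holds for every value given by day.

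**Figure D2:**
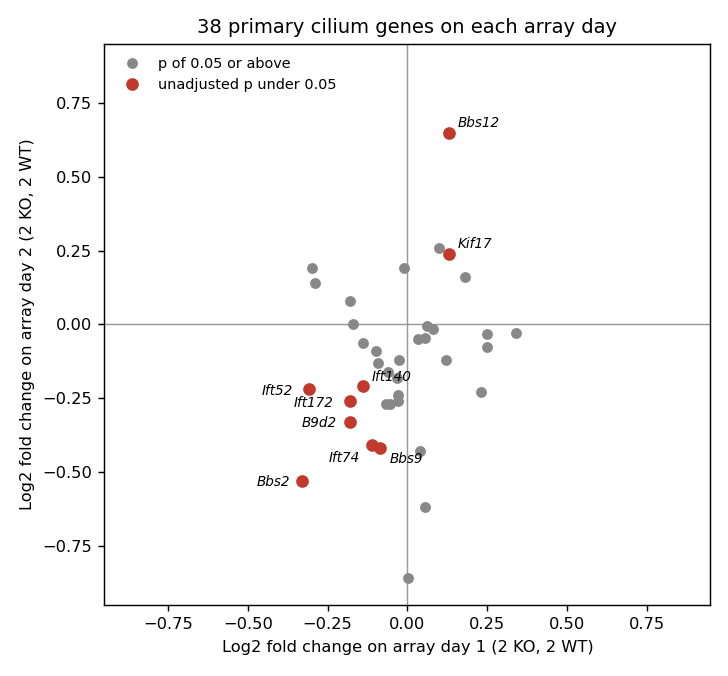
Log2 fold change of each of the 38 genes on array day 2 (vertical axis) against array day 1 (horizontal axis), with 2 knockout and 2 wild-type arrays on each; red points had an unadjusted p under 0.05 over both days. Lower on both days were 17 genes and higher on both days 4.

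Many ciliary genes have in their promoters an X-box, the site of the RFX transcription factors, which is an imperfect inverted repeat of the half-site GTTGCC. The window from 250 bases before to 50 bases after the gene start was therefore read for the primary cilium genes from RefSeq (GRCm38.p6), where 38 of the 41 had an entry; *Ift80*, *Ift81* and *Ift122* had none. On either strand, GTTGCC was found in 17 of the 38 windows, or 44.7%, against 14.1% of those of 27025 genes, and in 12 of 39 windows of other primary cilium genes and 3 of 16 of hedgehog pathway components. Both half-sites together, spelled GTTNCC and NGNAAC, where N is any base, were found with 1 base between them in 2 windows (5.26% against 0.777%) and with 2 bases between them in 4 windows (10.5% against 0.936%). These longer forms overlap the half-site. The GLI core GACCACCCA was found in none of the 38 windows, against 0.289% of all genes. A match describes letters in a window and is no evidence of binding. Of the 9 genes past an unadjusted p under 0.05, 4 held the half-site, the lower *B9d2*, *Ift140* and *Ift172* and the higher *Kif17*, and their windows are shown, 5′ to 3′ on the strand of the gene, so that the same letters can be read beside values that differ in direction. Capitals mark the half-site or its complement GGCAAC.
B9d2, chr7:25680530-25680829, plus strand: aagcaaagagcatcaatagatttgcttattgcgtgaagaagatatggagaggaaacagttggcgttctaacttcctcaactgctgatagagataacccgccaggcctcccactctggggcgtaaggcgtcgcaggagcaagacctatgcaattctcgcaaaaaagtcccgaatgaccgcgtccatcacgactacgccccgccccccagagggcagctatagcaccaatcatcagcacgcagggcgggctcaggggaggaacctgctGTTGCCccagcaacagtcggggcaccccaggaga
Ift140, chr17:25015836-25016135, plus strand: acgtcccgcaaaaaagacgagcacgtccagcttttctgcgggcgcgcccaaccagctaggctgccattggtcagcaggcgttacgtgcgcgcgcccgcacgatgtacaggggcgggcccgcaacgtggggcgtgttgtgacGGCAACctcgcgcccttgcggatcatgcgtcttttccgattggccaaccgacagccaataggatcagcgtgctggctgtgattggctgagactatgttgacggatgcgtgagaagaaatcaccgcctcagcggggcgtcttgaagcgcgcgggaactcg
Ift172, chr5:31291065-31291364, minus strand: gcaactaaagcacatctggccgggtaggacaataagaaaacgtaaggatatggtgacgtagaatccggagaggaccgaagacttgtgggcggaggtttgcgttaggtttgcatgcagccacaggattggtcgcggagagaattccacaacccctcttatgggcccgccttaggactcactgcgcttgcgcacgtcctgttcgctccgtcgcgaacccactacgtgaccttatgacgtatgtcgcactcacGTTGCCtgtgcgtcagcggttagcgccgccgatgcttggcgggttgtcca
Kif17, chr4:138262001-138262300, plus strand: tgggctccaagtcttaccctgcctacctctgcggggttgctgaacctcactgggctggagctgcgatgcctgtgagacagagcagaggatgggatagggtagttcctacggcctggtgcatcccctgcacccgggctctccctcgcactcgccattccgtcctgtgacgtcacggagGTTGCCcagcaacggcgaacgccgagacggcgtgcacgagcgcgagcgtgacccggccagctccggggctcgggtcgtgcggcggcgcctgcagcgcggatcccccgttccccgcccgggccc

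In 6 of the 38 windows the 2 half-sites stood together, and these are printed for their range of spacing, in capitals throughout. *Kif17* and *B9d2* were the 2 among these genes with an unadjusted p under 0.05, in opposite directions, and *Ift57*, *Bbs7*, *Mks1* and *Tctn1* were not past it.
Ift57, chr16:49699234-49699246, plus strand: GTTGCCTGGTAAC
Kif17, chr4:138262178-138262190, plus strand: GTTGCCCAGCAAC
B9d2, chr7:25680796-25680809, plus strand: GTTGCCCCAGCAAC
Bbs7, chr3:36613497-36613510, minus strand: GTTGCCTTGGAAAC
Mks1, chr11:87853191-87853204, plus strand: GTTGCCAGGGGAAC
Tctn1, chr5:122264411-122264424, minus strand: GTTGCCCGGGCAAC

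The IFT-B complex is the train that carries cargo to the tip of the cilium. All 10 of its listed subunits were measured. At an unadjusted p under 0.05, 3 were lower in the knockouts (30.0% against 8.49% of all genes) and none was higher (against 6.27%). A lower mean was found for 7 (70.0% against 53.8%). The roles hold few genes each, and differences between roles were not tested. The median log2 fold change of the 10 was -0.12. *Ift52* encodes a subunit of the core of the complex. Its log2 values were 9.41, 9.57, 9.49 and 9.50 on knockout arrays 1 to 4, against 9.70, 9.68, 9.76 and 9.90 on wild-type arrays 1 to 4. The knockout arrays all lay below the wild-type arrays, on either day, and the log2 fold change was -0.27 (SE 0.075, adjusted p = 0.263 from limma). *Ift172*, the largest subunit, which works in the turnaround at the tip, had log2 values of 10.30, 10.21, 10.35 and 10.24 on knockout arrays 1 to 4, against 10.41, 10.57, 10.45 and 10.55 on wild-type arrays 1 to 4. Here too no knockout array reached a wild-type array, although wild-type array 1 and knockout array 3 were close, and the log2 fold change was -0.22 (SE 0.069, adjusted p = 0.291 from limma). *Ift74*, whose protein binds tubulin together with IFT81, had log2 values of 9.55, 9.48, 9.50 and 9.77 on knockout arrays 1 to 4, against 9.77, 9.82, 10.03 and 9.72 on wild-type arrays 1 to 4. Its groups overlapped at knockout array 4 and wild-type array 4, and the log2 fold change was -0.26 (SE 0.10, adjusted p = 0.353 from limma). Its partner *Ift81* had a log2 fold change of 0.0016.

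*Ift20*, which also acts at the Golgi in sorting proteins for the cilium, gave 1 of the 3 brightest signals, a property of the probe set as much as of the transcript, with log2 values of 12.55, 12.67, 12.76 and 12.73 on knockout arrays 1 to 4, against 12.78, 12.85, 12.89 and 12.77 on wild-type arrays 1 to 4. The knockout arrays lay below the wild-type arrays by little, since knockout array 3 and wild-type array 4 almost met, and the log2 fold change was -0.14 (SE 0.072, adjusted p = 0.458 from limma). *Ift88*, the subunit whose loss in the mouse leaves cells without cilia, is the only one of the 38 genes on chromosome 14, where *Olfm4* lies, with 178 measured genes between them. Its log2 values were 7.59, 7.73, 7.77 and 7.98 on knockout arrays 1 to 4, against 7.79, 8.01, 8.16 and 7.88 on wild-type arrays 1 to 4. The groups overlapped, the log2 fold change was -0.19 (SE 0.12, adjusted p = 0.538), and it was 0.04 on array day 1 and -0.43 on array day 2. *Ift46*, *Ift57* and *Ift80* had log2 fold changes of -0.08, 0.0032 and 0.08, with overlapping groups.

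*Ift27*, a small GTPase that is needed for the BBSome to leave the cilium in mouse cells, had 3 probe sets that differed from each other. The brightest, of a design class that can bind other transcripts, had a log2 fold change of -0.10 (SE 0.076, adjusted p = 0.644). The second gave 10.66, 10.86, 10.98 and 11.05 on knockout arrays 1 to 4, against 11.15, 11.21, 11.21 and 11.11 on wild-type arrays 1 to 4. On this probe set no knockout array reached a wild-type array, with a log2 fold change of -0.28 (unadjusted p = 0.0159, SE 0.09, adjusted p = 0.298 from limma). The third, of the same design class as the brightest, had a log2 fold change of 0.06, so the direction for *Ift27* depends on the probe set.

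IFT-A brings material back from the tip and also carries membrane receptors into the cilium. *Ift140*, one of its core subunits, had log2 values of 12.02, 11.95, 12.02 and 12.07 on knockout arrays 1 to 4, against 12.17, 12.17, 12.22 and 12.20 on wild-type arrays 1 to 4. The spread within a genotype was small (SD 0.05 for knockout and 0.02 for wild type), no arrays overlapped, and the log2 fold change was -0.18 (SE 0.058, adjusted p = 0.302 from limma). *Ift43*, a peripheral subunit and another of the 3 brightest signals, had log2 values of 12.37, 12.43, 12.54 and 12.50 on knockout arrays 1 to 4, against 12.50, 12.68, 12.66 and 12.65 on wild-type arrays 1 to 4. Knockout array 3 lay above wild-type array 1, so its groups overlapped, and the log2 fold change was -0.16 (SE 0.073, adjusted p = 0.414 from limma). *Ift122*, a core subunit, had a log2 fold change of 0.17 on its brightest probe set (SE 0.09, adjusted p = 0.474) and of -0.17 on the other (SE 0.092, adjusted p = 0.49). The brightest is of a class that can bind related transcripts, and the direction of *Ift122* is not settled by these probe sets. IFT-A so had 1 of 3 subunits past an unadjusted p under 0.05, and it was lower (33.3% against 8.49% of all genes).

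The kinesins did not share a direction. *Kif3a* and *Kif3b*, the motor subunits of heterotrimeric kinesin-2, which drives IFT-B, had log2 fold changes of -0.11 (SE 0.071, adjusted p = 0.557) and -0.10 (SE 0.076, adjusted p = 0.613). *Kif17*, a homodimeric kinesin-2 known best from sensory cilia and dendrites, gave 1 of the 3 dimmest signals, with log2 values of 6.03, 6.07, 5.64 and 5.77 on knockout arrays 1 to 4, against 5.54, 5.91, 5.71 and 5.61 on wild-type arrays 1 to 4. The groups overlapped when the days were pooled, since wild-type array 2 lay above knockout arrays 3 and 4, while in the fit with array day the log2 fold change was 0.18 (SE 0.074, adjusted p = 0.365 from limma). Its probe set is of a class that can bind related transcripts, and the other 2 probe sets of *Kif17* had log2 fold changes of -0.08 and 0.05. *Kif7*, a kinesin that organises the cilium tip and regulates GLI proteins there, had log2 values of 6.03, 5.77, 5.75 and 5.84 on knockout arrays 1 to 4, against 5.39, 5.66, 5.63 and 5.99 on wild-type arrays 1 to 4. Wild-type array 4 lay above 3 of the 4 knockout arrays, and the log2 fold change was 0.18 (SE 0.14, adjusted p = 0.619 from limma), which became -0.033 without knockout array 1 and wild-type array 1.

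**Figure D3:**
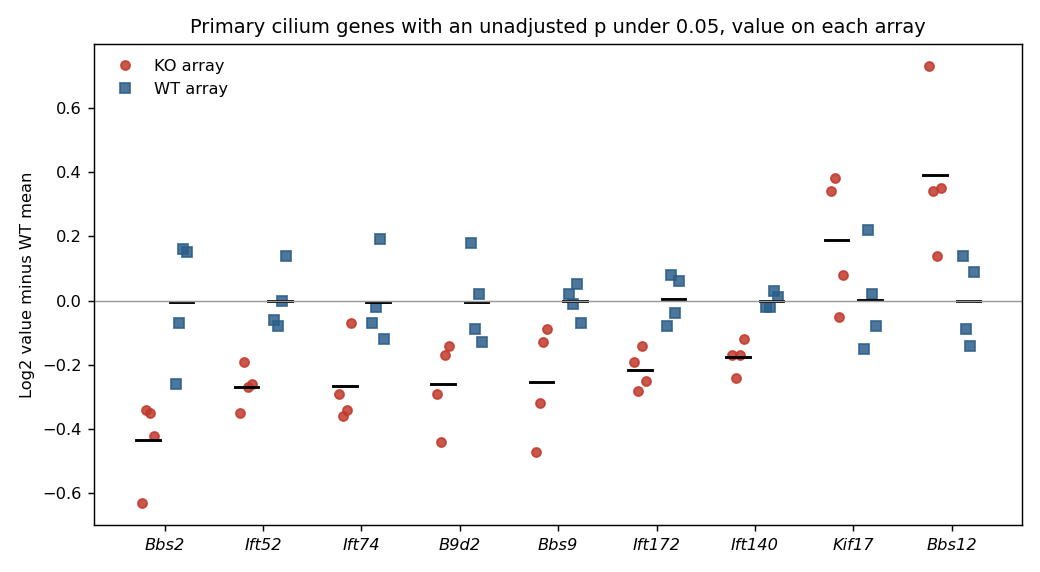
Log2 value on each knockout array (circles, left) and wild-type array (squares, right), minus the wild-type mean of the gene, for the 9 genes with an unadjusted p under 0.05; bars are group means. For *Bbs2*, *Ift52*, *B9d2*, *Bbs9*, *Ift172* and *Ift140* every circle lies below every square, and for *Bbs12* every circle lies above or level with them.

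The BBSome is a coat that moves membrane proteins out of the cilium, and its loss causes Bardet-Biedl syndrome in humans. Of its 8 measured genes, 2 subunits were lower in the knockouts at an unadjusted p under 0.05 (25.0% against 8.49% of all genes). In the other direction 1 chaperonin-like gene was higher (12.5% against 6.27%). A lower mean was found for 6 (75.0% against 53.8%), with a median log2 fold change of -0.17. *Bbs2*, a subunit of the core that assembles first, had the smallest p of the 38 genes, with log2 values of 8.37, 8.66, 8.65 and 8.58 on knockout arrays 1 to 4, against 8.74, 8.93, 9.16 and 9.15 on wild-type arrays 1 to 4. All knockout arrays were below all wild-type arrays, at a mean of 74.1% of the wild-type level, and the log2 fold change was -0.43 (SE 0.12, adjusted p = 0.26 from limma). *Bbs9*, another core subunit, had log2 values of 7.78, 7.93, 8.12 and 8.16 on knockout arrays 1 to 4, against 8.27, 8.24, 8.30 and 8.18 on wild-type arrays 1 to 4. The groups did not overlap, but knockout array 4 almost met wild-type array 4, and the log2 fold change was -0.25 (SE 0.088, adjusted p = 0.318 from limma). By day it was -0.09 (array day 1) and -0.42 (array day 2).

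*Bbs12* belongs to the chaperonin-like proteins that help the BBSome to assemble and is not itself a subunit. Its log2 values were 7.09, 6.70, 6.50 and 6.71 on knockout arrays 1 to 4, against 6.50, 6.27, 6.22 and 6.45 on wild-type arrays 1 to 4. The lowest knockout array and the highest wild-type array stood at nearly the same value, and the log2 fold change was 0.39 (SE 0.14, adjusted p = 0.318 from limma). By day it was 0.13 (array day 1) and 0.65 (array day 2). *Bbs10*, of the same chaperonin-like group, had log2 values of 6.59, 5.87, 6.00 and 6.41 on knockout arrays 1 to 4, against 6.24, 6.04, 6.41 and 6.50 on wild-type arrays 1 to 4. It too was 1 of the 3 dimmest signals, its groups overlapped, and the log2 fold change was -0.08 (SE 0.18, adjusted p = 0.891 from limma), with -0.20 on its other probe set. The direction turned without knockout array 2, at 0.045, and without knockout array 3, at 0.018.

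The remaining BBSome genes were not past an unadjusted p under 0.05 on their brightest probe sets. *Bbs7* had log2 values of 6.85, 6.68, 7.60 and 7.01 on knockout arrays 1 to 4, against 7.45, 7.58, 7.67 and 7.16 on wild-type arrays 1 to 4. The low values were those of knockout arrays 1 and 2, both of array day 2, so that the log2 fold change was -0.86 on that day and 0.0019 on array day 1, and -0.43 in the fit (SE 0.21, adjusted p = 0.449). *Bbs5*, whose protein binds phosphoinositides, had log2 values of 7.62, 7.48, 7.61 and 7.94 on knockout arrays 1 to 4, against 7.76, 8.12, 8.23 and 7.68 on wild-type arrays 1 to 4. It shared this pattern, at 0.05 on array day 1 and -0.62 on array day 2, with -0.29 in the fit (SE 0.15, adjusted p = 0.487). *Bbs1* had a log2 fold change of -0.08. *Bbs4*, with 4 probe sets, had log2 fold changes of 0.01, 0.02 and 0.07 on 3 of them and of -0.29 on the other (unadjusted p = 0.0358, SE 0.11, adjusted p = 0.355 from limma), where its groups overlapped. The per-array values of *Ift88*, *Bbs5* and *Bbs7*, and of the second *Ift27* probe set, were chosen for printing after they were seen.

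Of the regulators of membrane cargo 4 of 6 genes were measured. None was past an unadjusted p under 0.05, in either direction (against 8.49% of all genes lower and 6.27% higher). *Tulp3*, the adaptor that links IFT-A to receptors such as GPR161 and so lets them in, had log2 values of 11.59, 11.89, 11.96 and 11.79 on knockout arrays 1 to 4, against 11.83, 12.06, 11.97 and 12.06 on wild-type arrays 1 to 4. Its groups overlapped and the log2 fold change was -0.17 (SE 0.10, adjusted p = 0.531 from limma), with -0.27 and -0.04 on its other 2 probe sets. *Arl3*, a small GTPase that releases lipid-modified proteins inside the cilium, had log2 values of 12.75, 12.58, 12.45 and 12.64 on knockout arrays 1 to 4, against 12.67, 12.71, 12.75 and 12.70 on wild-type arrays 1 to 4. Knockout array 1 matched the highest wild-type arrays, and the log2 fold change was -0.10 (SE 0.072, adjusted p = 0.606 from limma). *Gpr161*, a ciliary receptor that restrains hedgehog signalling through cyclic AMP, had a log2 fold change of -0.05 (SE 0.20, adjusted p = 0.943); by day it was -0.30 (array day 1) and 0.19 (array day 2). *Inpp5e*, the phosphatase that shapes the lipids of the ciliary membrane, had one of -0.01 (SE 0.06, adjusted p = 0.976).

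EVC and EVC2 form a ring near the base of the cilium in which Smoothened passes on the signal. *Evc2* had log2 values of 6.93, 6.69, 6.71 and 6.73 on knockout arrays 1 to 4, against 6.68, 6.82, 6.41 and 6.78 on wild-type arrays 1 to 4. The groups overlapped, and the log2 fold change was 0.09 (SE 0.11, adjusted p = 0.778 from limma), which became -0.012 without wild-type array 3. *Evc* had a log2 fold change of -0.05 on its brightest probe set (SE 0.14, adjusted p = 0.917) and of 0.29 on the other (SE 0.14, adjusted p = 0.447).

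The transition zone is the gate between the cilium and the rest of the cell. Of 7 measured genes of it and the basal body, 1 was lower at an unadjusted p under 0.05 (14.3% against 8.49% of all genes) and none was higher (against 6.27%). A lower mean was found for 3 (42.9% against 53.8%), with a median log2 fold change of 0.03. *B9d2*, a B9-domain protein of the gate, had log2 values of 7.37, 7.22, 7.49 and 7.52 on knockout arrays 1 to 4, against 7.84, 7.57, 7.68 and 7.53 on wild-type arrays 1 to 4. The knockout arrays lay below the wild-type arrays, with knockout array 4 and wild-type array 4 almost equal, and the log2 fold change was -0.26 (SE 0.089, adjusted p = 0.316 from limma). The other B9-domain genes did not share this, since *B9d1* had a log2 fold change of 0.16 (SE 0.14, adjusted p = 0.695) and *Mks1*, which was low on wild-type array 1, one of 0.03 (SE 0.088, adjusted p = 0.913). The tectonic genes *Tctn1* and *Tctn2* had log2 fold changes of -0.14 and -0.11, *Cc2d2a* of 0.11 and *Ofd1*, a protein of the distal centriole, of 0.03, all with overlapping groups.

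Leaving out 1 array at a time, *Bbs2*, *Ift140*, *Ift172* and *Ift52* had an unadjusted p under 0.05 in all 8 fits. *B9d2*, *Bbs9*, *Ift74*, *Bbs12* and *Kif17* went above it in 2 to 5 of the fits. All these genes had been picked by that threshold on all 8 arrays, and each fit reuses most of those arrays. Staying under it is therefore not separate support. Leaving out knockout array 2 gave 4 lower genes (10.5% against 6.01% of all genes), as did leaving out wild-type array 3 (10.5% against 5.53%), and the other fits gave 5 to 9. Higher genes numbered 0 when wild-type array 3 was left out, 4 for wild-type array 4, 2 for knockout array 3 and 1 in the other fits. None of the 38 genes was called in any of the 8 fits, where 13 to 29 of all genes were called. On all 63 probe sets, 9 were lower at an unadjusted p under 0.05 (14.3% against 7.34% of all probe sets), 2 were higher (3.17% against 5.46%) and none was called (against 0.111%). Of the 15 genes with several probe sets, 7 had them all in 1 direction and 8 had them in both.

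The 38 genes were set beside a list of other primary cilium genes. Of 48 listed, 45 were measured and none was called, against 0.17% of all genes. At an unadjusted p under 0.05, 7 were lower (15.6% against 8.49% of all genes) and 1 was higher (2.22% against 6.27%). The median log2 fold change of the list was -0.04. *Tctn3*, the third tectonic gene, had log2 values of 9.60, 9.37, 9.62 and 9.40 on knockout arrays 1 to 4, against 9.81, 9.87, 9.85 and 9.89 on wild-type arrays 1 to 4. No knockout array reached a wild-type array, and the log2 fold change was -0.36 (SE 0.081, adjusted p = 0.209 from limma). *Fbf1*, of the distal appendages that anchor the basal body, had a log2 fold change of -0.30 (SE 0.081, adjusted p = 0.256). For *Pde6d*, which carries lipid-modified proteins such as INPP5E, it was -0.30 (SE 0.11, adjusted p = 0.324). Neither gene overlapped between the genotypes. Over the list, the knockout arrays were all below the wild-type arrays for 4 genes (8.89% against 6.29% of all genes). They were all above them for 1 (2.22% against 4.49%).

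Among hedgehog pathway components, 21 of 23 listed were measured, of which none was called, against 0.17% of all genes. At an unadjusted p under 0.05, 3 were higher (14.3% against 6.27% of all genes) and 1 was lower (4.76% against 8.49%). A higher mean was found for 14, with a median log2 fold change of 0.06. The 3 higher genes were the ligand *Shh*, the co-receptor *Gas1* and the transcription factor *Gli3*, with log2 fold changes of 0.61 (SE 0.15, adjusted p = 0.221), 0.45 (SE 0.093, adjusted p = 0.188) and 0.32 (SE 0.09, adjusted p = 0.262), and the lower one was the ligand *Ihh*, at -0.66 (SE 0.18, adjusted p = 0.263). Of 13 readouts of the pathway 1 was higher at an unadjusted p under 0.05, *Foxc2*, the gene of a forkhead factor. That is 7.69% against 6.27% of all genes, and none was lower (against 8.49%). *Gli1* and *Ptch1*, the readouts used most often, had log2 fold changes of 0.19 (SE 0.10, adjusted p = 0.497) and 0.06 (SE 0.069, adjusted p = 0.749). The *Gli1* signal was dim, at 5.89 to 6.02 on the knockout arrays and 5.61 to 6.01 on the wild-type arrays. The difference between these lists and the 38 genes was not tested.

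**Figure D4:**
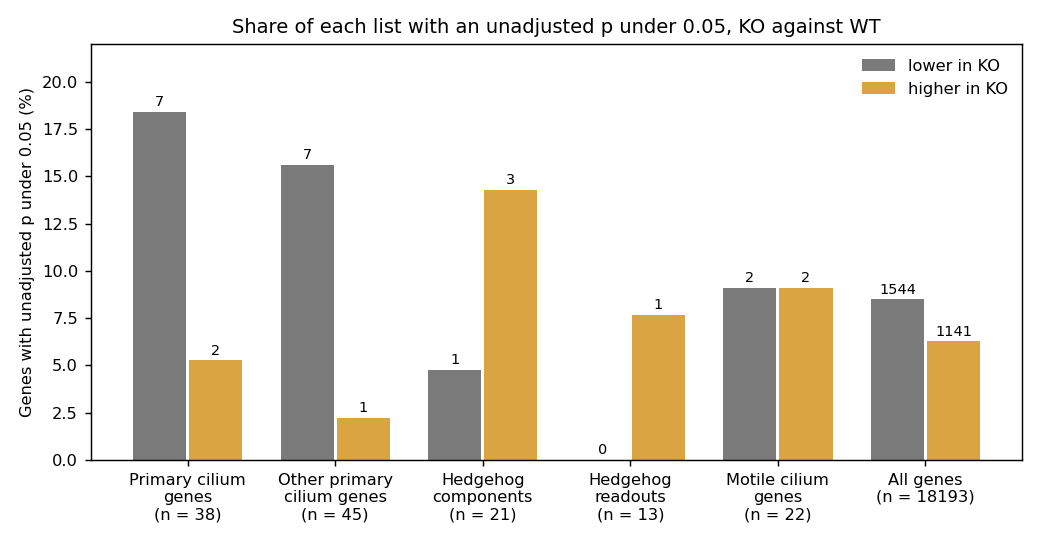
Percent of each gene list that was lower or higher in knockout than in wild-type prostate at an unadjusted p under 0.05, beside the same for all 18193 genes. Lower were 18.4% of the primary cilium genes and 15.6% of the other primary cilium genes, against 8.49% of all genes.

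Motile cilium genes held the only called genes of the lists of other pathway genes, 2 of 22, where 0.17% of all genes were called. The lists were chosen with earlier results of these data known, so this count is no support for a change of motile cilium genes as a group. *Spag1*, an assembly factor of axonemal dynein, had log2 values of 10.77, 11.35, 11.50 and 11.06 on knockout arrays 1 to 4, against 7.18, 7.21, 7.74 and 7.49 on wild-type arrays 1 to 4. It rose by 3.77 on the log2 scale in knockout prostate (SE 0.19, adjusted p = 0.000661 from limma). *Fam183b*, the other called gene, had log2 values of 6.65, 6.45, 6.76 and 6.76 on knockout arrays 1 to 4, against 7.84, 8.28, 8.22 and 7.92 on wild-type arrays 1 to 4. It fell by 1.41 on the log2 scale (SE 0.13, adjusted p = 0.0143 from limma), and its adjusted p was 0.0534 without knockout array 4, 0.0756 without wild-type array 2 and 0.0814 without wild-type array 3. Under the methods' analysis of variance its adjusted p was 0.0608, and with array 1 of both genotypes left out it was 0.0628 from limma, so both lost the call. On a single array day neither gene was called, with adjusted p of 0.0726 and 0.223 for *Spag1* and of 0.237 and 0.18 for *Fam183b* on array days 1 and 2. Of the 22 motile cilium genes, 2 were higher at an unadjusted p under 0.05, *Spag1* and *Rfx3* (9.09% against 6.27% of all genes). Another 2 were lower, *Fam183b* and *Dnaic1* (9.09% against 8.49%). *Foxj1*, the transcription factor of motile ciliogenesis, had a log2 fold change of -0.01. Of 8 genes of cilium disassembly none was called, against 0.17% of all genes. *Aurka*, the kinase that starts disassembly, had a log2 fold change of -0.61 (SE 0.14, adjusted p = 0.213), *Kif24*, a kinesin that holds back regrowth, one of -0.22 (SE 0.091, adjusted p = 0.378), and *Kif2a*, a microtubule-depolymerising kinesin, one of 0.21 (SE 0.067, adjusted p = 0.299). Cells take down their cilium before division. Of 13 proliferation genes 1 was lower at an unadjusted p under 0.05, *Bub1* (7.69% against 8.49% of all genes), and none was higher (against 6.27%).

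Primary cilia are not equally common on all cell types, so marker lists of the cell types of the prostate were read on the same arrays. All 9 fibroblast markers had a higher mean in knockout prostate, with a median log2 fold change of 0.27 and a summed score of -0.065 to 0.43 on the knockout arrays, against -0.27 to -0.0014 on the wild-type arrays. All 8 basal epithelium markers did as well, with a median of 0.26 and a score of -0.17 to 0.33 on the knockout arrays, against -0.32 to 0.075 on the wild-type arrays. No marker of these 2 lists was called, against 0.17% of all genes. At an unadjusted p under 0.05, 1 fibroblast marker (11.1%) and 3 basal markers (37.5%) were higher, against 6.27% of all genes. The score of the 6 measured luminal markers was -0.18 to 0.085 on the knockout arrays, against -0.047 to 0.10 on the wild-type arrays, and that of the 8 smooth muscle markers -0.14 to 0.48 on the knockout arrays, against -0.13 to 0.065 on the wild-type arrays. Of 7 endothelium markers 6 had a higher mean (median 0.08), and of 7 leukocyte markers 5 had a lower one (median -0.17). The 4 nerve and Schwann cell markers all had a lower mean (median -0.26), but their score was high on single arrays of both genotypes. It was 0.90 on knockout array 1 and -0.73 to -0.40 on the other knockout arrays. On wild-type arrays 1 to 4 it was 1.04, -0.37, 0.70 and -0.50. Knockout array 1 had the highest score of all arrays for fibroblast (0.43), smooth muscle (0.48) and endothelium markers (0.39). The fibroblast score was -0.039, -0.065 and 0.21 on knockout arrays 2 to 4. The part of knockout array 1 in these higher means was not tested. The score of the 38 cilium genes was -0.038, -0.11, -0.0065 and 0.0072 on knockout arrays 1 to 4, against -0.016, 0.051, 0.051 and 0.061 on wild-type arrays 1 to 4. Knockout arrays 3 and 4 lay above wild-type array 1, so the scores overlapped. The part of these cell types in the differences of the cilium genes was not tested. The arrays rich in seminal vesicle transcripts, knockout array 1 and wild-type array 1, were then left out. At an unadjusted p under 0.05, 5 cilium genes were lower (13.2% against 8.56% of all genes) and 1 was higher (against 6.04%). The median log2 fold change was -0.15 (all genes -0.02). The 5 lower genes were *Bbs2*, *Ift140*, *Ift172*, *Ift52* and *Evc*. With all arrays kept, *Evc* was not past this threshold, and *B9d2*, *Bbs9* and *Ift74* were.

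**Figure D5:**
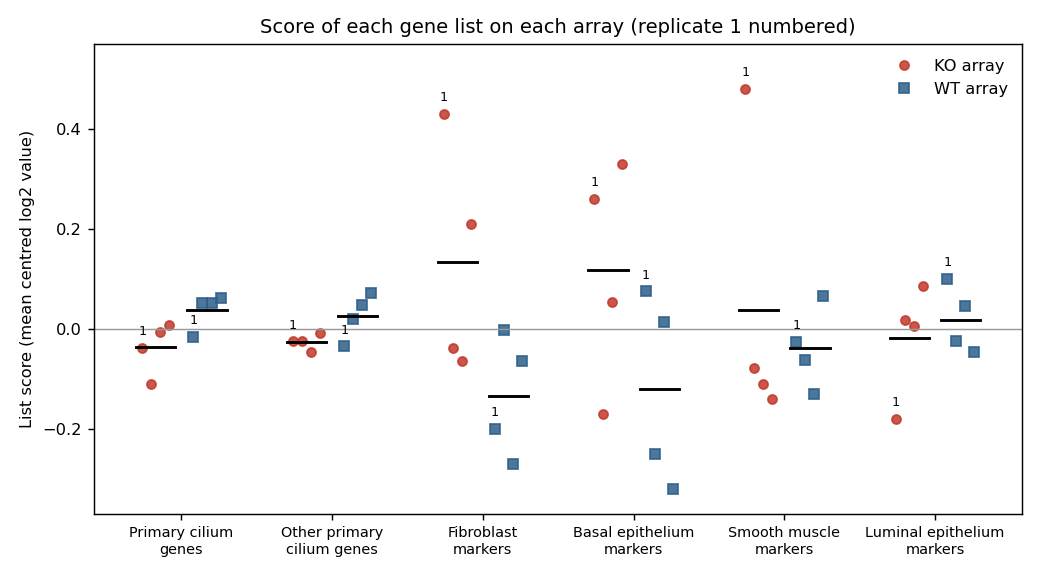
Score of the 38 primary cilium genes and of cell type marker lists on each array (log2, the mean of its genes, each centred over the 8 arrays), for knockout (left) and wild-type (right) arrays, with group means as bars; the number 1 marks array 1 of each genotype. The cilium score runs from -0.11 to 0.0072 on the knockout arrays and from -0.016 to 0.061 on the wild-type arrays.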

How the data were processed

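Whole-prostate RNA was measured on 8 Affymetrix Mouse Genome 430 2.0 arrays. The deposited values are log2 expression values that the authors made with RMA, that is, with background correction, quantile normalization across arrays and 1 summary value per probe set. The RMA version is not given in the sources used for this report. Quantile normalization can hide a shift shared by most transcripts.

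After 64 control probe sets were left out, knockout and wild-type arrays were compared on 45037 probe sets by the moderated linear model of limma 3.58.1 (R 4.3.3), in 2-sided tests with Benjamini-Hochberg adjustment. Array day entered the model beside genotype, since each day held both genotypes. No filter on dim probe sets was used. The methods name analysis of variance and do not state its factors, so it was run with genotype alone as an alternative. Names came from the platform annotation, with 34945 probe sets of 1 symbol, 932 of several and 9160 of none, and 18145 of 18193 genes matched RefSeq.

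The cilium genes and all lists were chosen with earlier results of these data known. Genes were named by rule: an unadjusted p under 0.05, the 3 brightest, the 3 dimmest and the smallest p of each role. Replicate numbers in the titles were not taken as pairs in the main fit. The deviations of same-numbered arrays from their group means correlated at 0.336, 0.173, 0.0433 and -0.00559. Array day was not removed from these deviations, and arrays 1 and 3 differ in day between the genotypes. These correlations therefore cannot exclude a pairing.

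The fit was tested on simulated data. The 22 alternatives were the fit without array day, replicate blocks, the analysis of variance, other variance models and weights, centring, quantile normalization, filters, single days, means over probe sets and arrays left out.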

Additional observations from a re-analysis of the deposited data

Results flagged for a closer look

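Within the wild-type arrays, array 1 lay apart from the others in 2 of the 78 groups of 4 arrays that were looked at, and chance flags about 1 in 20 groups. *Mks1*, a B9-domain gene of the transition zone, had log2 values of 7.29 to 7.47 on the knockout arrays, against 7.15 on wild-type array 1 and 7.41 to 7.45 on the other wild-type arrays. The score of the 38 primary cilium genes was -0.11 to 0.0072 on the knockout arrays, against -0.016 on wild-type array 1 and 0.05 to 0.06 on the other wild-type arrays. The same array had a seminal vesicle marker score of 3.87, and the part of these transcripts in its cilium gene values was not tested.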

How the results depend on the processing

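No cilium gene was called under any of the 22 alternatives. Each tested 38 cilium genes except the filter at a mean log2 value of 7, which tested 32. Few genes of the array were called under these alternatives, from 2 on array day 2 alone to 42 with an intensity trend and robust variance. At an unadjusted p under 0.05 the 2 higher genes became 1 without array day, under the methods' analysis of variance, with an intensity trend and robust variance, with the mean of all probe sets, and on array day 2 alone, and 0 on array day 1 alone. They also numbered 0 with that filter, which removed both *Bbs12* and *Kif17* from the test. With a replicate block added the lower genes numbered 5 (13.2% against 7.88% of all genes) and the higher 1 (against 6.44%), with 11 genes of the array called against 31, and with a replicate block in place of array day 7 (18.4% against 7.87%) and 1 (against 6.19%), with 13 called; of the 4 knockout arrays 1 correlated best with the wild-type array of its own number. On array day 1 alone the lower genes numbered 2 and the median log2 fold change was -0.029. Without knockout array 1 and wild-type array 1 the higher gene count was 1 and the median -0.15. The 2 called genes of the other cilium and hedgehog lists, *Spag1* and *Fam183b*, became 1, *Spag1*, under both replicate blocks (adjusted p of *Fam183b* 0.143 and 0.0761 from limma), the analysis of variance and without those 2 arrays, and 0 on either day alone. Leaving out single arrays gave 4 to 9 lower genes, 0 to 4 higher genes and 1 to 2 called genes of the other lists. Direction turned for *Evc2*, at -0.012 on array day 1 alone and -0.012 to 0.15 without single arrays, for *Bbs10*, at 0.003 on array day 2 alone and -0.24 to 0.045 without single arrays, and for *Kif7*, at -0.033 without knockout array 1 and wild-type array 1. The causes were not tested. The other 100 and 341 values, for counts or medians and for named genes, stayed within 1.5 times, within the spread between replicates or on the same side of the threshold. With 4 arrays a genotype the standard errors of the cilium genes were 0.058 to 0.21, so changes of their size were not resolved.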
